A study of Mus musculus with 6 samples.

Results

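The AP-1 and early growth response genes examined here are 10 named genes, Fos, Fosb, Fosl1, Fosl2, Jun, Junb, Jund, Atf3, Egr1 and Ier3, taken by symbol from a table of 14998 genes. Values were analysed for 8 of them, and Fosb and Fosl1 were not analysed here. All 8 passed the filter of a mean of at least 1 FPKM (fragments per kilobase of transcript, scaled for library depth). RNA came from whole testes of male mice in 6 libraries. The 3 libraries labelled knockout carry Lats1 flox/flox and Lats2 flox/flox alleles with Amh-cre, a transgene whose Amh promoter directs Cre to Sertoli cells, the nurse cells of the seminiferous tubule. The 3 control libraries carry the same floxed alleles without Amh-cre. Age is not given in the labels. Since nothing in the labels says that libraries of a group came from different mice, each p-value reflects variation among these 6 libraries only, and that variation may be technical.

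AP-1 is a dimer of leucine zipper proteins. JUN proteins pair with each other or with FOS proteins, FOS proteins need a JUN partner, and ATF3 pairs with JUN proteins. EGR1 is a zinc finger factor, and IER3 is a small early response protein that acts on ERK signalling and cell survival. Transcription of Fos, Junb, Atf3, Egr1 and Ier3 is switched on within minutes to hours by growth factors, stress, cytokines or the handling of tissue. LATS1 and LATS2 are the Hippo pathway kinases that hold back YAP and TAZ, and AP-1 and the YAP/TAZ partner TEAD are known to share many enhancers in cultured cells.

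The promoters of the 3 genes with the largest rises and of Jund, the gene that was lower, are shown to let the starts of the genes be compared. Each line holds the 250 bases before the gene start in RefSeq (build GRCm38.p6), 5′ to 3′ on the gene's strand. Capitals mark every match, on either strand, to the cyclic AMP response element core TGACG, to a CRE-like site TGANNTCA, to an EGR site GCGNGGGCG or to the NF-kB consensus.
Fos, chr12:85473640-85473889, strand +: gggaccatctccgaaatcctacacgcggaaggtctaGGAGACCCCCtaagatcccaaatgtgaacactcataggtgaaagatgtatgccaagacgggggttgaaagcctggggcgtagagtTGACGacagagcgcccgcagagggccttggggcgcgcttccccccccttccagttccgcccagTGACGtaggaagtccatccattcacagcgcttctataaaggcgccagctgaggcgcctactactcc
Junb, chr8:84978749-84978998, strand -: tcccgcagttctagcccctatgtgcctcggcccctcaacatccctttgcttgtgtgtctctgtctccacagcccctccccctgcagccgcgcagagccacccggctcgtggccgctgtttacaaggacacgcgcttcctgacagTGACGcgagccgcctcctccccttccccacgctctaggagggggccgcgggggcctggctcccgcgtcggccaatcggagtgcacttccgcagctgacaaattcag
Ier3, chr17:35821463-35821712, strand +: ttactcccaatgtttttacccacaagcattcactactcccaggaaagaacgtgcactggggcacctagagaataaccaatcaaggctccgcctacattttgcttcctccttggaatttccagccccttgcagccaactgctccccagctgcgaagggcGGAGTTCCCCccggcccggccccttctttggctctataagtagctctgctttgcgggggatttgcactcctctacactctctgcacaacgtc
Jund, chr8:70697489-70697738, strand +: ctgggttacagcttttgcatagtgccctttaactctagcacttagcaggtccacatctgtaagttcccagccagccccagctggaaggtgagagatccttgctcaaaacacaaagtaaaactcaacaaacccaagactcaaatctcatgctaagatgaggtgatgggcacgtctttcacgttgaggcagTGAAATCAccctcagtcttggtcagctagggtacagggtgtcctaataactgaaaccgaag

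Promoter windows were matched for 7 of the 8 genes, all but Egr1. The TGACG core occurred in 3 of these 7 windows, Fos, Junb and Atf3, beside 17.8% of all 32851 RefSeq windows of the same length. Counted from the gene start, it began at -129 and at -66 in Fos and at -106 in Junb, and in Atf3 it lay on the opposite strand at -7 to -3. Jun held the CRE-like site TGACATCA at -45 to -38 and Jund held TGAAATCA at -61 to -54, and 11.9% of all windows had a match to that pattern. A match to the NF-kB consensus was found in Fos, Fosl2 and Ier3 (3 of 7 windows, 3.90% of all windows), where the 2 matches in Fosl2 overlap. The EGR site was found in Fosl2 alone of the 7 (4.70% of all windows). No match to the AP-1 site TGANTCA (6.75% of all windows), the TEAD site GGAATG (12.6%) or the CArG box of serum response factor (1.47%) lay in any of the 7 windows. The known serum response element of Fos lies farther upstream than these windows reach. The RefSeq starts of Ier3 and Atf3 lie inside the deposited gene models, so their windows hold some bases of those models. The match in Atf3 lies wholly within its deposited model. The Jund window ends just before its deposited model, which has 2878 bases beside 1668 annotated exon bases. Whether the annotated start of Jund is the same was not tested. The shares over all windows were not matched for base composition, and G and C made up 47.6% (Jund) to 66.4% (Junb) of the 7 windows. Whether the motifs are more frequent here than in windows of like composition was not tested. These matches describe letters in the windows, and binding was not measured.

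**Figure D1:**
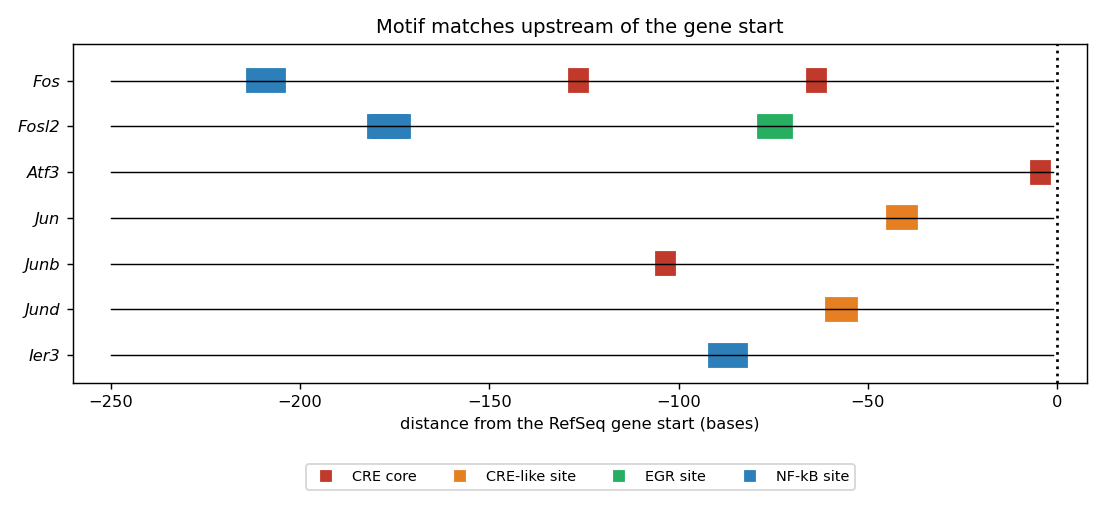
Positions of motif matches (coloured boxes) in the bases before the RefSeq gene start, with distance from the start in bases on the x axis and 1 line for each of 7 genes. Red boxes mark the TGACG core in Fos, Atf3 and Junb, and blue boxes the NF-kB consensus in Fos, Fosl2 and Ier3.

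Control library 3 stood apart from the other control libraries more than any knockout library did from its group (mean chi-square per gene of 3.82 and 5.13, against 2.04 between control libraries 1 and 2). Of the 8 genes, 7 rose and 1 fell in libraries labelled knockout, by limma with Benjamini-Hochberg adjustment over 13778 genes at a threshold of 0.05. Fos, Junb and Ier3 rose more than 10-fold, Atf3 rose 5.56-fold, and Fosl2 rose 2.39-fold. Egr1 and Jun rose less, 1.44-fold and 1.18-fold, and Jund fell. In whole organs, a change in the number of cells of a type and one in RNA per cell cannot be told apart. The same test called 68.9% of all genes, 35.2% higher and 33.7% lower, so a call by itself sets these genes little apart. Groups did not overlap for 7 genes that were higher and 1 that was lower, where 37.9% of all genes tested did not overlap in the higher and 36.3% in the lower direction. The median log2 fold change was 1.59 over the 8 genes and 0.01 over all genes tested. The middle 90% of all genes tested lay between -1.30 and 1.25. The 8 genes were chosen with earlier results of these data known, so this contrast is a description and not a test. Without control library 3 the test again called 7 genes higher and 1 lower, at log2 fold changes of 3.47 for Ier3, 3.14 for Fos, 2.98 for Junb, 2.04 for Atf3, 1.21 for Fosl2, 0.41 for Egr1, 0.28 for Jun and -0.13 for Jund. Unless recovered reads are named, a log2 fold change here was taken from log2(FPKM + 1), and a fold is a ratio of mean FPKM.

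**Figure D2:**
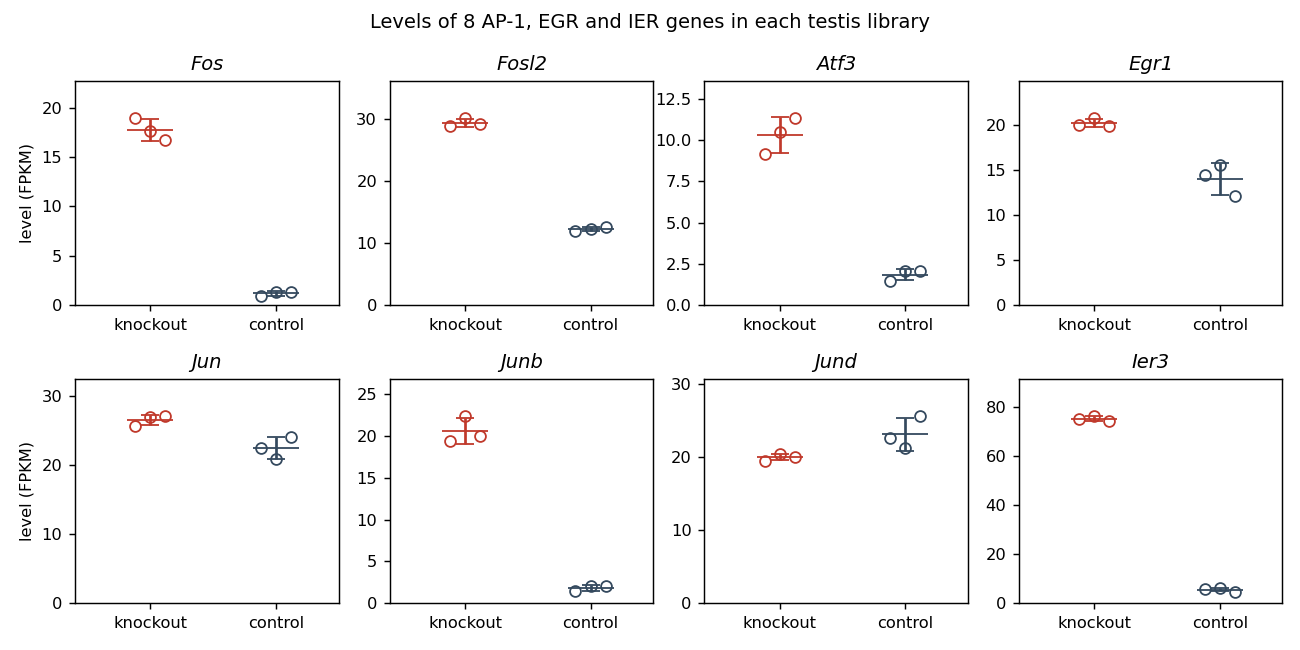
Level in FPKM (y axes, each from 0) of the 8 genes in 3 knockout (red) and 3 control (dark) libraries, with circles for libraries, long bars for group means and whiskers for SD. The groups do not overlap in any panel, and Jund is the gene whose knockout libraries lie below the control libraries.

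Fos (chromosome 12, 85473890 to 85477273, GRCm38), whose protein is the founding FOS subunit of AP-1, had 18.9, 17.6 and 16.7 FPKM in knockout libraries 1 to 3, against 0.941, 1.31 and 1.37 FPKM in control libraries 1 to 3. Every knockout library was more than 10 times as high as any control library. Its log2 fold change was 3.09 (SE 0.09, adjusted p = 3.46e-08), and 57 of the 13778 genes tested had a larger one. The values rest on 548, 458 and 446 reads in knockout libraries and on 21, 42 and 39 reads in control libraries. Counting error alone allows 0.582 to 1.44 FPKM (95% Poisson interval) in control library 1. Because the control values lie near the added 1 FPKM, the scale understates this change, and on recovered whole reads limma-voom gave 3.85 on the log2 scale (SE 0.17, adjusted p = 7.5e-08).

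Fosl2 (chromosome 5, 32136472 to 32157831), which encodes the FOS-related antigen FRA-2, had 28.8, 30.1 and 29.2 FPKM in knockout libraries, against 12, 12.3 and 12.6 FPKM in control libraries. The libraries of a group lay close together, with 29.4 ± 0.664 FPKM in knockout and 12.3 ± 0.312 FPKM in control libraries (SD, n = 3 each). The log2 fold change was 1.19 (SE 0.04, adjusted p = 6.77e-08), and 5.4% of all genes tested had a larger one. In FPKM, Fosl2 was the higher of the 2 measured FOS family genes in both groups. That rank depends on gene length, and the FPKM of Fosl2 imply 5855 bases, beside 9680 annotated exon bases. Fos made up 39.6%, 36.9% and 36.4% of the summed FPKM of Fos and Fosl2 in knockout libraries, against 7.27%, 9.62% and 9.79% in control libraries.

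Junb (chromosome 8, 84976909 to 84978748), which encodes a JUN protein often opposed to JUN in growth control, had 19.4, 22.4 and 20 FPKM in knockout libraries, against 1.43, 2.07 and 2.02 FPKM in control libraries. It was the JUN gene with the large change, 11.2-fold, or 2.93 on the log2 scale (SE 0.10, adjusted p = 7.4e-08). Control values rest on 25, 52 and 45 reads, and limma-voom on recovered reads gave 3.45 (SE 0.17). Jun (chromosome 4, 95049034 to 95052222), the founding JUN subunit and a target of JNK, had 25.7, 26.9 and 27.1 FPKM in knockout libraries, against 22.5, 20.9 and 24.1 FPKM in control libraries. The lowest knockout library was only a little above the highest control library, and the log2 fold change was 0.23 (SE 0.06, adjusted p = 0.00521). An antisense gene, Junos, shares 232 of the 3189 exon bases of Jun (7.28%), and the strand setting of the counting is not given, so reads of the pair cannot be told apart there.

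Jund (chromosome 8, 70697739 to 70700616), the JUN gene with the steadiest expression in many tissues, had 19.5, 20.4 and 20 FPKM in knockout libraries, against 22.6, 21.2 and 25.6 FPKM in control libraries. The groups were close, with 20.4 FPKM in the highest knockout and 21.2 FPKM in the lowest control library, and the control libraries were the more spread. It fell, at -0.20 on the log2 scale (SE 0.06, adjusted p = 0.0228). The call did not hold without knockout library 1 (adjusted p = 0.0731) or without knockout library 3 (adjusted p = 0.0564). Without control library 3 the change was smaller, -0.13 (adjusted p = 0.0326). The authors' deposited table gives Jund a log2 fold change of -0.17 with an FDR of 0.113. The antisense model Gm11175 covers 877 of the 2878 bases of the Jund model (30.5%), where reads of the 2 genes could not be separated without strand.

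In the authors' deposited table the log2 fold changes are 3.83 for Ier3, 3.90 for Fos, 3.50 for Junb, 2.50 for Atf3, 1.30 for Fosl2, 0.57 for Egr1 and 0.28 for Jun.

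The make-up of the measured FOS and JUN transcripts, in FPKM, differed between the groups. Sums and shares across genes depend on the gene lengths behind FPKM. For Fosl2, Junb and Jund those lengths differ from the annotated exon lengths. Summed over Fos, Fosl2, Jun, Junb and Jund, levels were 112, 117 and 113 FPKM in knockout libraries and 59.5, 57.8 and 65.7 FPKM in control libraries. Jun and Jund together held most of the sum in every control library. Fos and Fosl2 took 42.5%, 40.6% and 40.6% of it in knockout libraries, against 21.8%, 23.6% and 21.3% in control libraries, a difference of 19.1 percentage points. Within the JUN family, Junb took 30.0%, 32.1% and 29.8% in knockout libraries and 3.08%, 4.69% and 3.90% in control libraries. The share of Jun was lower, at 39.7%, 38.6% and 40.4% in knockout libraries against 48.4%, 47.3% and 46.7% in control libraries, although its level was higher. Groups did not overlap in any of these shares, and the two-sided exact permutation test gave p = 0.1 for each, the smallest that 3 against 3 libraries allow (also 0.1 after adjustment over 8 shares and sums). Fosb and Fosl1 were not analysed and do not enter these sums.

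**Figure D3:**
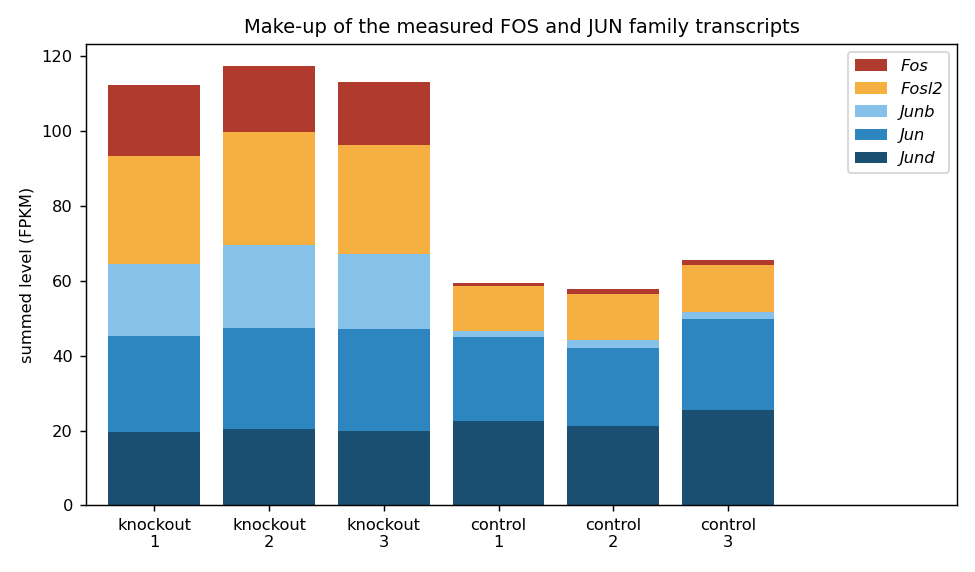
Summed level in FPKM (y axis, from 0) of Fos, Fosl2, Junb, Jun and Jund in each library, stacked by gene, with the 3 knockout libraries on the left and the 3 control libraries on the right. The knockout bars reach 112 to 117 FPKM and the control bars 57.8 to 65.7 FPKM, with Fos and Junb nearly invisible in the control bars.

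Atf3 (chromosome 1, 191170296 to 191183340), a stress-induced leucine zipper factor, had 9.12, 10.5 and 11.3 FPKM in knockout libraries, against 1.49, 2.04 and 2.04 FPKM in control libraries. The lowest knockout library was more than 4 times as high as the highest control library, and the log2 fold change was 1.99 (SE 0.11, adjusted p = 7.95e-07). On recovered reads, with 28, 55 and 49 reads in control libraries, it was 2.44 (SE 0.18). Atf3 had the lowest FPKM of the 8 genes in knockout libraries.

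Egr1 (chromosome 18, 34859823 to 34864984), the zinc finger factor that binds GC-rich sites, had 20, 20.7 and 19.9 FPKM in knockout libraries, against 14.4, 15.5 and 12.1 FPKM in control libraries. Knockout libraries were tightly grouped (SD 0.428 FPKM) and control libraries less so (SD 1.75 FPKM, n = 3 each), with control library 3 the lowest. The log2 fold change was 0.50 (SE 0.08, adjusted p = 0.000475). In control libraries Egr1 stood near Fosl2, and its mean level there was more than 10 times that of Fos. Egr2 and Egr3, its paralogs, are named after their values were seen. Egr2 had 11.2, 11.7 and 11.5 FPKM in knockout libraries, against 1.33, 1.73 and 1.12 FPKM in control libraries (log2 fold change 2.39, adjusted p = 1.73e-07). Egr3 was under the filter, with 0.745, 1.6 and 1.43 FPKM in knockout libraries and 0.149, 0.519 and 0.233 FPKM in control libraries. Egr4 went the other way, with 0.380, 0.381 and 0.413 FPKM in knockout libraries against 2.46, 2.54 and 5.87 FPKM in control libraries (log2 fold change -1.66, adjusted p = 0.000301). Among the EGR genes tested, Egr1 and Egr2 thus rose and Egr4 fell in the same libraries.

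Ier3 (chromosome 17, 35821684 to 35822923) was the most abundant of the 8 genes in knockout libraries, with 75.3, 76.4 and 74.3 FPKM, against 5.87, 5.91 and 4.60 FPKM in control libraries. Knockout libraries differed from each other by less than 3 FPKM. The rise was 13.8-fold, at 3.57 on the log2 scale (SE 0.08, adjusted p = 1.03e-08), and 20 of the genes tested had a larger one. On recovered reads limma-voom gave 3.79 for Ier3 (SE 0.11), beside 3.85 for Fos (SE 0.17), so the order of Ier3 and Fos depends on the scale. Ier3 lay above 98.7% to 98.8% of all genes in level in the knockout libraries, against 32.1% to 39.9% in the control libraries.

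The order of the levels in FPKM differed between the groups. An order among genes depends on the gene lengths used, which differ from annotated exon lengths for Fosl2, Junb, Jund and Atf3. In knockout libraries Ier3 was followed by Fosl2 (29.4 ± 0.664 FPKM), Jun (26.6 ± 0.792 FPKM), Junb (20.6 ± 1.6 FPKM), Egr1 (20.2 ± 0.428 FPKM), Jund (20 ± 0.453 FPKM), Fos (17.8 ± 1.09 FPKM) and Atf3 (10.3 ± 1.10 FPKM). Junb, Egr1 and Jund did not differ beyond their spread there. In control libraries the order was Jund (23.1 ± 2.23 FPKM), Jun (22.5 ± 1.62 FPKM), Egr1 (14.0 ± 1.75 FPKM), Fosl2 (12.3 ± 0.312 FPKM), Ier3 (5.46 ± 0.743 FPKM), Atf3 (1.85 ± 0.318 FPKM), Junb (1.84 ± 0.357 FPKM) and Fos (1.21 ± 0.233 FPKM). Jund and Jun, Egr1 and Fosl2, and Atf3 and Junb were neighbours within their spread.

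**Figure D4:**
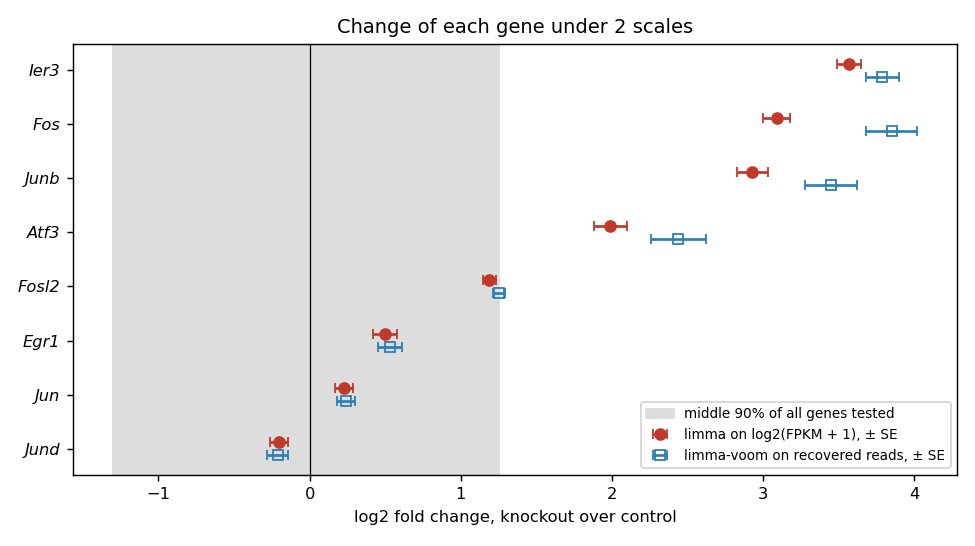
Log2 fold change of knockout over control for each gene (x axis) with its SE, from limma on log2(FPKM + 1) (filled circles) and from limma-voom on recovered reads (open squares), with the middle 90% of all genes tested in grey. Ier3, Fos, Junb and Atf3 lie to the right of the grey band, and the squares of Fos, Junb and Atf3 lie farther right than their circles.

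Profiles most like those of the 2 genes with the largest log2 fold change were ranked by the root mean square distance over 6 libraries, each gene's log2(FPKM + 1) being taken relative to its own control mean. With control values so centred, the distance mostly reflects a like size of change. It does not show that genes vary together. Nearest to Ier3 were Bmp3 (distance 0.102), Rin1 (0.124), C1qb (0.124), C1qa (0.151) and Csf1 (0.156). Csf1, the gene of macrophage colony-stimulating factor, had 36.6, 38.2 and 34.6 FPKM in knockout libraries, against 2.56, 2.46 and 2.54 FPKM in control libraries. Nearest to Fos were Rcan2 (0.0973), Cyr61 (0.0981), C1ql3 (0.106), 2200002D01Rik (0.106) and Lilrb4 (0.108). Cyr61, a matricellular gene and YAP/TAZ target, had 144, 155 and 141 FPKM in knockout libraries, against 16.1, 16.3 and 16.7 FPKM in control libraries. Among the other AP-1 and EGR genes, Junb came 15th in nearness to Fos (0.146) and Ier3 came 105th (0.380). Nearness on this scale does not mean equal folds where control levels are below the added 1 FPKM. In FPKM, Bmp3 rose 38.1-fold and Rin1 31.4-fold beside 13.8-fold for Ier3, and Lilrb4 rose 22.9-fold and Cyr61 8.94-fold beside 14.7-fold for Fos.

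Other leucine zipper genes of the AP-1 kind rose in 9 of 10 cases and fell in 1, with a median log2 fold change of 0.84. A further 3 listed genes were not analysed. For this list and those below, the same test called 35.2% of all genes higher and 33.7% lower. These lists were chosen with earlier results of these data known, so their counts and medians are descriptions. Mafk, a small MAF partner without an activation domain, had 27.8, 27.7 and 27.1 FPKM in knockout libraries, against 10, 10.8 and 11.1 FPKM in control libraries (log2 fold change 1.30, adjusted p = 9.22e-08). Jdp2, which encodes a JUN-dimerizing repressor, had 16.5, 18.9 and 15.7 FPKM in knockout libraries, against 6.39, 5.31 and 5.93 FPKM in control libraries (log2 fold change 1.39, adjusted p = 1.35e-06). Mafa, a large MAF gene, was listed at 0 in the 3 knockout libraries, against 3.8, 4.83 and 2.98 FPKM in control libraries. The knockout and control libraries did not overlap for any of these 3 genes.

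Other immediate early genes rose in 20 of 25 cases, fell in 1 and did not pass in 4, with a median of 0.74. Of the 29 listed, 3 were not analysed and Egr3 was under the filter. Dusp1, the gene of a phosphatase that switches MAP kinases off, had 42.3, 43.5 and 44.1 FPKM in knockout libraries, against 5.63, 6.23 and 7.11 FPKM in control libraries (log2 fold change 2.60, adjusted p = 2.34e-08). Gadd45b, a stress sensor gene, had 62.0, 63.1 and 65.6 FPKM in knockout libraries, against 9.24, 8.58 and 11.1 FPKM in control libraries (log2 fold change 2.61, adjusted p = 3.82e-08). Egr4, given above, was the gene that fell. Nr4a1, Nr4a2, Sik1 and Per1 did not pass, with log2 fold changes of -0.07, -0.02, -0.11 and 0.11 (named after their values were seen, as all that did not pass).

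Genes upstream of AP-1 and EGR1, serum response factor with its cofactors and the MAP kinases, split, with 12 of 24 higher, 5 lower and 7 not past the test and a median of 0.15. Map2k1, which encodes the ERK kinase MEK1, had 28.3, 29.2 and 29.9 FPKM in knockout libraries, against 16.2, 15.0 and 17.3 FPKM in control libraries (log2 fold change 0.81, adjusted p = 3.02e-06). Mkl1, the gene of an actin-regulated cofactor of serum response factor, had 10.9, 12.2 and 11.7 FPKM in knockout libraries, against 5.93, 5.58 and 6.65 FPKM in control libraries (log2 fold change 0.84, adjusted p = 1.2e-05). Map2k7, a JNK kinase gene, fell to 13.9, 13.9 and 13.5 FPKM in knockout libraries, against 20.5, 19.5 and 24.3 FPKM in control libraries (log2 fold change -0.60, adjusted p = 0.00011). Elk1, Elk4, Mapk9 and Map2k6, named after their values were seen, also fell, at -0.31, -0.17, -0.14 and -0.52 on the log2 scale. RNA levels of these genes do not report kinase activity, which was not measured.

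Genes with described AP-1 sites were higher for 13 of 14 tested, with 1 not past the test and a median of 1.29. Of the 19 listed, 5 were not analysed. Ezr, which links membranes to actin, had 97.1, 101 and 101 FPKM in knockout libraries, against 19.7, 20.8 and 21.1 FPKM in control libraries (log2 fold change 2.22, adjusted p = 5.49e-09). Ptgs2, the inducible prostaglandin synthase gene, had 10, 9.11 and 9.99 FPKM in knockout libraries, against 0.712, 0.585 and 0.738 FPKM in control libraries (log2 fold change 2.67, adjusted p = 3.67e-08). The gelatinase gene Mmp9, named after its values were seen, was the one not past, at 1.42, 1.94 and 1.94 FPKM in knockout libraries and 1.73, 2.28 and 2.19 FPKM in control libraries. Among NAB corepressor genes and described EGR1 targets, 7 of 10 rose (median 0.58), and Nab1, Pdgfa and Fgf2, named after their values were seen, did not pass. F3, the tissue factor gene, had 33.4, 35.4 and 31.3 FPKM in knockout libraries, against 6.46, 7.44 and 6.56 FPKM in control libraries (adjusted p = 3.72e-08). Icam1, an adhesion gene that macrophages and endothelium also express, had 14.9, 16.3 and 16.1 FPKM in knockout libraries, against 3.73, 2.92 and 3.12 FPKM in control libraries (adjusted p = 1.65e-07).

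NF-kB subunit and feedback genes, the list around Ier3, were called higher for 11 of 12 and lower for the remaining 1 (median 0.55). Nfkb2 had 15.7, 15.1 and 14.5 FPKM in knockout libraries, against 4.87, 4.69 and 5.07 FPKM in control libraries (log2 fold change 1.45, adjusted p = 1.2e-07). Tnfaip3, whose product A20 shuts NF-kB signalling down, had 5.23, 6.48 and 6.26 FPKM in knockout libraries, against 1.44, 1.55 and 1.65 FPKM in control libraries (log2 fold change 1.45, adjusted p = 2.07e-06). Birc2, a ubiquitin ligase gene, fell to 27.3, 25.8 and 26.4 FPKM in knockout libraries, against 37.2, 36.0 and 38.6 FPKM in control libraries (adjusted p = 1.35e-05).

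In the integrated stress response list, drawn up around Atf3, 6 of 12 genes rose, 2 fell and 4 did not pass, with a median of 0.18. Those not past were Trib3, Cebpg, Eif2ak3 and Eif2ak4, and Ppp1r15a fell beside Asns, all 5 named after their values were seen. Vldlr, a lipoprotein receptor gene, had 10.6, 10.2 and 11.8 FPKM in knockout libraries, against 4.37, 4.46 and 4.10 FPKM in control libraries (log2 fold change 1.15, adjusted p = 1.35e-06). Atf4, the gene of the main effector of the response, had 69.4, 71.1 and 72.8 FPKM in knockout libraries, against 53.7, 49.5 and 54.1 FPKM in control libraries (log2 fold change 0.43, adjusted p = 5e-05). Asns, the asparagine synthetase gene that ATF4 induces, fell to 24.2, 23.1 and 23.8 FPKM in knockout libraries, against 36.8, 35.2 and 34.6 FPKM in control libraries (log2 fold change -0.56, adjusted p = 4.08e-06).

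Heat shock genes respond to tissue handling, as early genes do, and moved in no common direction, with 3 of 11 higher, 2 lower and 6 not past the test and a median that rounds to 0. Bag3, a chaperone partner gene, had 23.0, 23.0 and 22.9 FPKM in knockout libraries, against 12.8, 12.9 and 14.7 FPKM in control libraries (log2 fold change 0.73, adjusted p = 6e-06). Hspb1 had 12.8, 11.9 and 13.8 FPKM in knockout libraries, against 11.4, 10.6 and 10.7 FPKM in control libraries (adjusted p = 0.0127), a call that did not hold with limma-voom on recovered reads (adjusted p = 0.0598). Hspa1a, the classic inducible HSP70 gene, fell to 1.89, 1.35 and 2.36 FPKM in knockout libraries, against 3.60, 3.75 and 4.64 FPKM in control libraries (log2 fold change -0.81, adjusted p = 0.000903). Dnajb1 (0.17) also rose and Hspa1b (-0.59) also fell, both named after their values were seen, and reads of the near-identical Hspa1a and Hspa1b could have been split either way. Without knockout library 3, 1 heat shock gene was called higher. Summed heat shock levels were 204 to 212 FPKM in knockout and 187 to 213 FPKM in control libraries. A difference between the groups in the handling of tissue before freezing was not tested.

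**Figure D5:**
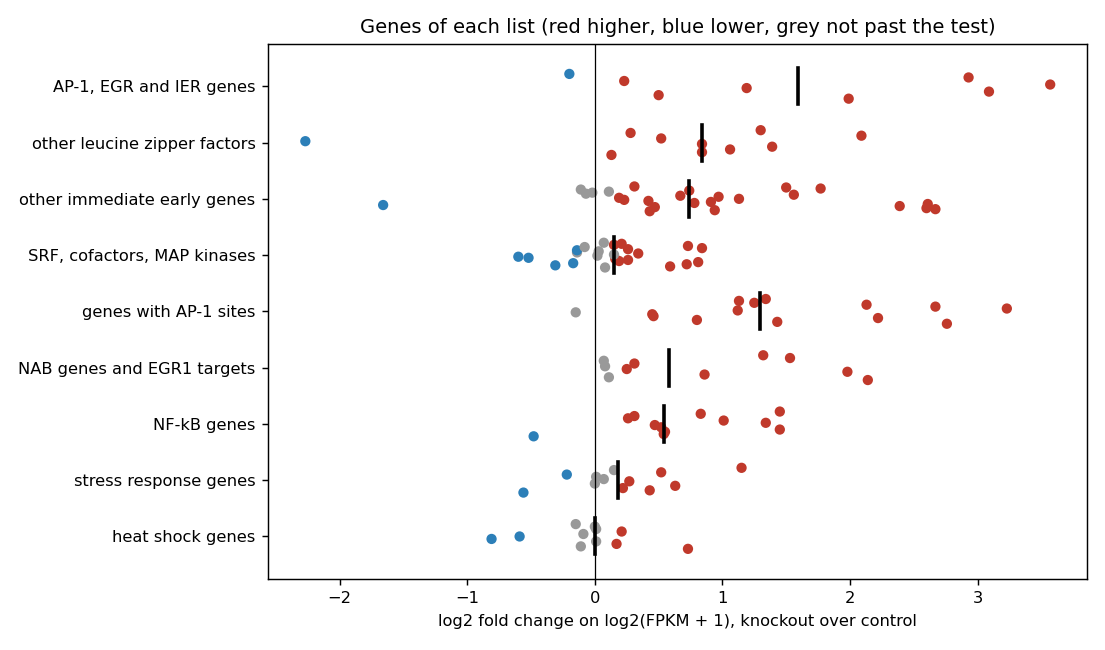
Log2 fold change of knockout over control (x axis, log2(FPKM + 1) scale) for every tested gene of each list, 1 point per gene, with a black bar at the list's median. The median is 1.59 for the AP-1, EGR and IER genes, 1.29 for genes with AP-1 sites and 0.15 for the upstream factors. The heat shock genes sit around 0. Genes and lists were chosen with earlier results of these data known.

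Cell type markers moved in the same libraries. Summed macrophage markers had 555 to 646 FPKM in knockout and 76.2 to 87.2 FPKM in control libraries, with 12 of 12 tested genes higher, Cx3cr1 and Csf1r among them at log2 fold changes of 3.13 and 3.20. Mesothelial markers, summed, had 199 to 216 FPKM in knockout and 38.3 to 38.5 FPKM in control libraries, with 6 of 6 higher, Msln at a log2 fold change of 4.28. Lower sums were found for germ cell markers (50.4 to 93.5 FPKM in knockout and 273 to 332 FPKM in control libraries, 9 of 9 lower), Leydig cell markers (328 to 373 FPKM in knockout and 732 to 821 FPKM in control libraries, 8 of 8 lower) and Sertoli cell markers (259 to 295 FPKM in knockout and 526 to 557 FPKM in control libraries, 12 of 15 lower and 3 higher). The 3 higher Sertoli markers were Sox9, Wt1 and Cldn11. Among those that fell were Amh, Ddx4 and Star, at log2 fold changes of -5.06, -1.44 and -0.94. Amh had 0.598 to 1.27 FPKM in knockout libraries. Of 8 fibroblast markers, 6 fell and Col14a1 alone rose, of 8 myoid markers 5 rose and Myh11 and Cnn1 fell, and of 9 endothelial markers 4 rose and Cdh5 and Vwf fell. Csf3r rose alone of 4 tested neutrophil markers, and erythroid markers passed in 0 of 4. Fos, Junb, Atf3, Egr1 and Ier3 are expressed in many of these cell types when stimulated, and the part of the cell mixture in their change was not tested.

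The table implies 11045693 to 12322844 reads in knockout and 9490735 to 13620087 reads in control libraries. Genes of the table took 80.5% to 81.6% of them in knockout and 75.4% to 77.2% in control libraries. Lats1 had 12.4 to 12.9 FPKM in knockout and 15.3 to 16.3 FPKM in control libraries, and Lats2 had 17.8 to 18.2 FPKM in knockout and 14.5 to 17.0 FPKM in control libraries. The Lats2 level is opposite to its label. Both values are over whole genes in a whole organ, and the cause of the Lats2 level was not tested. Each direction here is drawn from the labels alone. Testes are the tissue in every sample label, whereas adrenal glands are named in the text on the series' design. Sertoli markers such as Amh (63.0 to 68.1 FPKM) were high in control libraries, where summed adrenal markers had 59.5 to 65.9 FPKM, against 51.5 to 62.3 FPKM in knockout libraries, with Cyp11b1 and Mc2r higher and Chga and Pnmt lower of 6 tested, Pnmt being listed at 0 in all knockout libraries. Besides Mafa and Pnmt, no listed marker or pathway gene with values was listed at 0 in any library.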

How the data were processed

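Whole testes had been frozen and their RNA extracted with a Qiagen kit and aligned with STAR, per the labels' protocols. Per the submitters' processing notes, the authors used build GRCm38 and DESeq2 1.22.2. For the counter, its strand setting and read filters, the sources used here give nothing. The authors deposited FPKM per library, a largest FPKM, log2 group means, and, for mutant against control, a log2 fold change, p-values and their −log10, per the file headers. Column names (Control, Mutant and a number) were matched to the sample titles.

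The planned test for FPKM was used: two-sided limma 3.58.1 (R 4.3.3), with trend, on log2(FPKM + 1) of the 13778 genes averaging 1 FPKM or more, with Benjamini-Hochberg adjustment over all of them. For all 14998 genes a length was found at which the 6 FPKM values gave whole reads (tolerance 0.003 reads), called recovered reads here. The shortest such length was taken unless the annotated exon length was its whole multiple. That search finds a length easily where few libraries hold reads, and it can understate the recovered reads. Their absolute scale used merged exon lengths in GENCODE M21, which 48.2% of genes with such a length matched. Poisson intervals cover counting error only. Libraries of a group differed beyond sampling noise (mean chi-square per gene 1.75 to 5.13, highest for control pairs with library 3). All 6 libraries were kept, and fits leaving out each library were run beside the main one.

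The members and gene lists were chosen with earlier results of these data known. Named genes are the 8 genes, for each of 8 pathway or stress lists the 2 with the smallest p in the commoner direction and 1 in the other, the 5 nearest profiles to each of 2 genes, and cell marker examples. Cell markers other than Cx3cr1, Csf1r, Sox9, Amh, Ddx4, Star and Msln were named after their values were seen. Lists hold textbook genes, and no set test was run. Their counts are of tested genes, since some listed genes were not analysed or were under the filter. The result of 1 cell marker list is not reported here. Motif letters were fixed after the promoter table was available. Alternatives were other pseudocounts and filters, median-ratio scaling, leaving out each library, a block by replicate number, and limma-voom on recovered reads. Python 3.11.15, pandas 2.3.3 and matplotlib 3.10.9 made tables and figures.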

Additional observations from a re-analysis of the deposited data

How the results depend on the processing

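The 8 genes kept their direction in all 104 fits under the alternatives, and 102 stayed on their side of the threshold. The exceptions were both for Jund, without knockout library 1 (log2 fold change -0.18, adjusted p = 0.0731) and without knockout library 3 (-0.20, adjusted p = 0.0564), and Jund ranged from -0.25 to -0.13 over its alternatives, with the count of lower genes among the 8 then 0 to 1. Fos ranged from 3.00 to 3.88, Junb from 2.82 to 3.49, Atf3 from 1.89 to 2.48, Ier3 from 3.47 to 3.79, Fosl2 from 1.17 to 1.25, Egr1 from 0.41 to 0.58 and Jun from 0.18 to 0.28. With a mean of at least 5 FPKM, where fewer genes are tested, 2903 genes were lower against 4642, 6 NF-kB genes higher, 1 heat shock gene lower, and 0 leucine zipper and 0 other early genes lower. Leaving out 1 library each gave 1 to 3 higher heat shock genes. The scaling alternative moved the median of all genes by 0.01. Shared replicate numbers did not pair the libraries: deviations of same-numbered libraries correlated at -0.01, -0.02 and 0.10, and 2 of 6 libraries correlated best with their own number. With the replicate block 4762 genes were higher and 4597 lower, and the same 8 genes were called (Jund -0.20, adjusted p = 0.0217). Depth limits the control values of Fos, Junb and Atf3 most, at 21 to 55 reads.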
